A study of Zea mays with 45 samples.

Results

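Small heat shock proteins are chaperones that work without ATP: they bind proteins that begin to unfold and hold them until chaperones of the HSP70 and HSP101 kinds refold them. Plants make them for the cytosol and for organelles, and transcription of their genes is best known for its response to heat through heat shock factors. The genes described here are *hsp22*, whose product in maize is a mitochondrial small heat shock protein, *hsp26*, which encodes the small heat shock protein of the chloroplast, and *hsp18a* and *hsp18f*, named for the cytosolic members of the family. They were taken by the symbols or synonyms hsp22, hsp18 and hsp18f from the annotation of an Affymetrix maize array. The synonym hsp18 belongs both to *hsp26* and, in capitals, to *hsp18a*, and both were kept. This gave 4 genes of the 1108 that could be named, each with 1 probe set of the 17555 tested: Zm.369.1.A1_at for *hsp22*, Zm.11.1.S1_at for *hsp26*, Zm.311.1.A1_at for *hsp18a* and Zm.16504.1.A1_at for *hsp18f*. The genes were chosen by measured values, from earlier results of these data, among them that *hsp22* was lower after 14 h of extended night than at dusk (the end of the day) and *hsp26* lower at dawn (the end of the night) in the elongation zone. Values of the 4 genes that use the dusk arrays, those of *hsp22* that use the 14 h arrays and those of *hsp26* that use the dawn arrays of the elongation zone are therefore given as a description, without a test.

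Total RNA was measured from leaves of the maize genotype SL (KWS Einbeck), with each replicate a pool of 5 plants. The plants grew at 700 µE of light and 70% humidity in days of 14 h of light set to 25 °C and 10 h of dark set to 22 °C, and the labels put the effective day temperature at the plants at about 29 °C. Sampling took place at dusk, at dawn, and 6, 14 and 24 h into a night extended past dawn, which deprives the leaf of photosynthetic carbon. At each time 3 leaf zones were cut: the division zone from 0 to 1.5 cm above the ligule, the elongation zone from 3 to 4.5 cm, and the mature zone further up. The labels give 3 replicates for each of the 15 groups, but 3 arrays hold no values, so 42 of 45 were used and the elongation and mature zones at dusk and the mature zone at 6 h had 2 arrays each. Dusk was the only time in the light. It closed a day set to 25 °C and dawn a night set to 22 °C, and no temperature is listed for the extended night. For every gene below, light, warmth and carbon supply therefore cannot be told apart in the difference of dusk from the other times. Samples of 24 h match dawn in clock hour and those of 14 h match dusk, while 6 h and 14 h set against dawn mix clock hour with the length of darkness. In tissue of many cells, fewer cells of a type and less RNA per cell cannot be told apart either.

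Levels are deposited log2 signals, and differences are in log2 units ± SE from limma, with adjusted p-values over all 17555 probe sets; p-values measure the spread between pools. A gene is said to have risen or fallen where the adjusted p was under 0.05. Zone markers sorted as labelled for 5 of 6 division, 3 of 5 elongation and 7 of 7 mature zone genes. Arrays of a group correlated at 0.963 to 0.998. Replicate 3 of the mature zone at dawn stood apart, at −92.8 on the first principal component, nearer to the growth zones than its fellows at −140.8 and −143.1, and mature zone results that rest on it are given with and without it. As a measure of dim signal, 6.34 was the level that 95% of the values of reporter probe sets, which have no maize target, did not exceed. All 42 arrays lay above it for *hsp18a* and 20 for *hsp22*, but 0 for *hsp26* and 0 for *hsp18f*, so every difference of these last 2 genes is one between dim signals. A dim signal can understate a fold change, and levels are not compared between genes.

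*hsp22* had the widest course of the 4 genes. Its group means spanned 4.53 log2 units, a wider range than that of 93.1% of probe sets, and it was highest in the elongation zone at dusk and lowest in the mature zone in the dark. At dusk its levels were 8.37, 8.77 and 8.93 in the division zone, 9.31 and 9.74 in the elongation zone, with the mature zone at 7.48 and 7.94. At dawn they were 7.59, 7.71 and 7.87 in the division zone, 8.24, 8.29 and 8.25 in the elongation zone, with the mature zone at 5.08, 5.29 and 6.07. In each zone every dusk array lay above every array of the other 4 times, a pattern that 1.5% of probe sets had in all 3 zones. The pattern uses the dusk and 14 h arrays, which took part in the choice of the gene. The difference over the normal night was −0.97 ± 0.27 for the division zone, −1.26 ± 0.30 for the elongation zone and −2.23 ± 0.30 for the mature zone. Without the mature zone array that stood apart, the last was −2.52 ± 0.30.

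**Figure D1:**
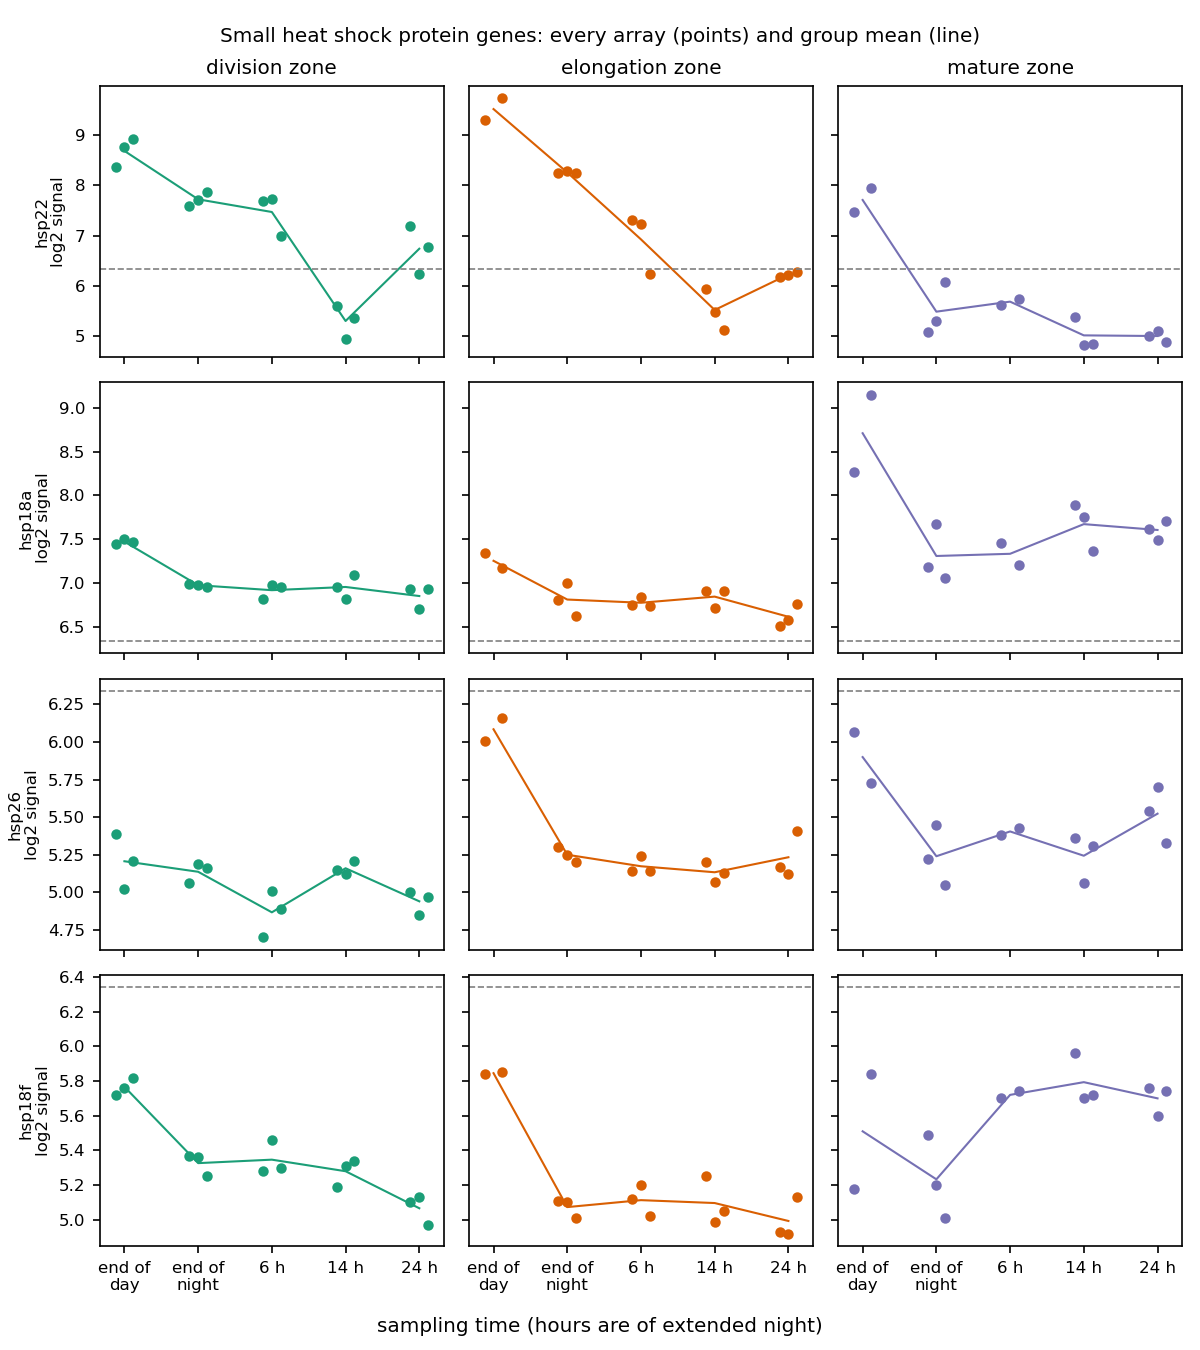
Log2 signal (vertical axis) of the 4 small heat shock protein genes in each array (points) with group means (lines) at the 5 sampling times (horizontal axis, from the end of the day, or dusk), by leaf zone; the dashed line is the dim level of 6.34. *hsp22* and *hsp18a* have every dusk array above all others of the zone in all 3 zones, and *hsp26* and *hsp18f* lie below the dashed line throughout.

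In the extended night *hsp22* fell in both growth zones, in the elongation zone at 6 h and 24 h and in the division zone at 24 h; the 14 h samples are described only. There its levels were 7.31, 7.23 and 6.23 at 6 h, 5.94, 5.48 and 5.12 at 14 h, and 6.18, 6.22 and 6.27 at 24 h. All of these lay below every dawn array of the zone. Set against dawn, *hsp22* fell by 1.33 ± 0.27 at 6 h (limma adjusted p = 0.00085), and 0.0342% of probe sets had a difference at least as low. At 24 h it had fallen by 2.04 ± 0.27, 4.10-fold (limma adjusted p = 2e-07), and the untested difference at 14 h was −2.75 ± 0.27. The levels of 14 h and 24 h lay under the dim level, which limits how far a fold can be read. Of the 3 genes tested there, *hsp22* was the only one called at 6 h and 24 h, against 9.01% and 42.4% of all probe sets.

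In the division zone the fall passed the test at 24 h. The levels of *hsp22* at 6 h, 7.68, 7.73 and 7.0, overlapped those at dawn, and the difference of −0.25 ± 0.27 did not pass the test (limma adjusted p = 0.77). At 14 h they were 5.60, 4.93 and 5.35, a difference of −2.43 ± 0.27 from dawn without overlap, and all under the dim level. At 24 h they were 7.19, 6.24 and 6.78, between those of 14 h and of dawn and overlapping neither. The difference from dawn was then −0.99 ± 0.27 (limma adjusted p = 0.0045), and −0.74 without replicate 2 of the 24 h samples, where it no longer passed (adjusted p = 0.061). Of the 4 genes *hsp22* was the only one called in this zone at 24 h, against 32.8% of all probe sets. Relative to the division zone, the change in the elongation zone was lower by 6 h at −1.08 ± 0.38 (95% interval −1.85 to −0.31) and by 24 h at −1.05 ± 0.38 (−1.82 to −0.28). Neither passed after adjustment (limma adjusted p = 0.88 and 0.13), in tests that called 0.148% and 3.61% of probe sets. Both passed with array weights (−1.22 and −1.25). Arrays of these zones with the same replicate number deviated together at dawn and 24 h. With that number as a block in a fit of the compared growth zone groups alone, the difference for 24 h passed (−1.05 ± 0.21, limma adjusted p = 0.013). There 2575 probe sets were called in place of 634.

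In the growth zones *hsp22* had its lowest mean at 14 h and a higher one at 24 h, a comparison added after the values were seen and, since it uses the 14 h arrays, not tested. The 24 h samples exceeded those of 14 h by 1.44 ± 0.27 in the division zone and by 0.71 ± 0.27 in the elongation zone, and the groups overlapped in neither. In the mature zone the difference was −0.01 ± 0.27. Set against dusk, which the 14 h samples match in clock hour, *hsp22* at 14 h was lower by 10.5-fold in the division zone (−3.40 ± 0.27), by 16.1-fold in the elongation zone (−4.01 ± 0.30) and, for the mature zone, by 6.52-fold (−2.70 ± 0.30). The groups did not overlap in any zone, as held in all 3 zones for 14.5% of probe sets. The 14 h arrays of all zones lay below the dim level, which limits how far these folds can be read.

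In the mature zone *hsp22* was already dim at dawn. Its levels were 5.62 and 5.74 at 6 h, 5.37, 4.82 and 4.83 at 14 h, and 5.00, 5.10 and 4.88 at 24 h, and each group overlapped dawn. Differences from dawn were 0.20 ± 0.30, −0.47 ± 0.27 and −0.49 ± 0.27, and those of 6 h and 24 h did not pass the test (limma adjusted p = 0.64 and 0.12). Without the array that stood apart they were 0.49, −0.18 and −0.19. Without replicate 1 of dawn instead, the fall at 24 h passed, at −0.69 (adjusted p = 0.045). The change of *hsp22* from dawn differed between zones: relative to the elongation zone that in the mature zone was higher by 1.54 ± 0.40 at 6 h (limma adjusted p = 0.0049) and by 1.55 ± 0.38 at 24 h (limma adjusted p = 0.00093). Without the array that stood apart these were 1.83 and 1.84. Relative to the division zone the changes were higher by 0.46 ± 0.40 and 0.50 ± 0.38 and did not pass (limma adjusted p = 0.44 and 0.28). Nor did they pass without that array, at 0.75 and 0.8 (limma adjusted p = 0.17 and 0.076).

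**Figure D2:**
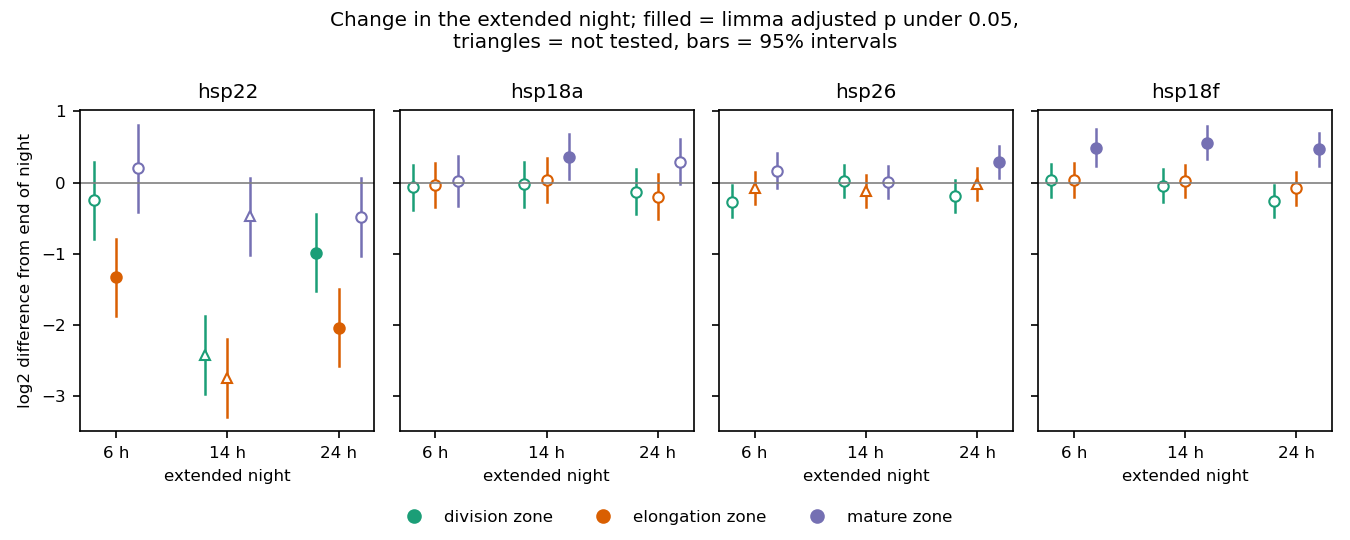
Log2 difference from dawn (vertical axis) at 6, 14 and 24 h of extended night for the 4 genes in the 3 leaf zones; bars are 95% intervals, filled points passed the limma test at an adjusted p under 0.05, and triangles were not tested. The filled points below 0 are those of *hsp22* in the growth zones, while those of the other 3 genes are rises in the mature zone.

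Along the leaf *hsp22* was lower in the mature zone than below it in the elongation zone at dawn, 6 h and 24 h. The step from the elongation to the mature zone was −2.78 ± 0.27 at dawn (limma adjusted p = 4.7e-11), −1.24 ± 0.30 at 6 h (0.0004) and −1.23 ± 0.27 at 24 h (0.00012), and the untested step at 14 h was −0.51 ± 0.27. The first was −3.07 without the array that stood apart. The zones differ in most probe sets, with 76.2%, 78.2%, 80.6% and 80.2% called at these times, and centring each array on its median would move all mature against elongation differences up by 0.16 to 0.24. The step from the division to the elongation zone did not pass at dawn, 6 h or 24 h (limma adjusted p = 0.11, 0.10 and 0.13). At dawn the difference was 0.54 ± 0.27 without overlap, and it passed in a fit of the 2 groups alone (adjusted p = 0.00051) and there with replicate number as a block (adjusted p = 0.00043). Ordered by mean, the elongation zone at dusk (9.52), the division zone at dusk (8.69), the elongation zone at dawn (8.26) and the division zone at dawn (7.72) followed each other without overlap. Below the last, each neighbouring pair overlapped, except that all arrays of the elongation zone at 24 h (6.22) exceeded those of the next group, the mature zone at 6 h (5.68).

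*hsp18a*, named for the cytosolic family and above the dim level on every array, had its high point in the mature zone at dusk. Its levels there were 8.27 and 9.15, against 7.45, 7.50 and 7.47 in the division zone and 7.34 and 7.17 in the elongation zone. At dawn they were 7.19, 7.68 and 7.06 in the mature zone, against 6.99, 6.98 and 6.96 in the division zone and 6.81, 7.0 and 6.63 in the elongation zone. As for *hsp22*, every dusk array lay above every other array of its zone in all 3 zones. The difference over the night was −0.50 ± 0.15 for the division zone, −0.44 ± 0.17 for the elongation zone and −1.40 ± 0.17 for the mature zone, where the 2 dusk arrays lay far apart. With the lower or the higher of these 2 left out, the last value was −1.84 or −0.96, and it was −1.28 without the dawn array that stood apart.

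After dawn no change of *hsp18a* passed the test in the growth zones. From 6 to 24 h its levels ran from 6.70 to 7.09 in the division zone and from 6.51 to 6.91 in the elongation zone. The 6 differences from dawn lay between −0.20 and 0.04, with limma adjusted p from 0.34 to 0.96, and their 95% intervals reached from −0.51 to 0.35. In the mature zone the levels were 7.46 and 7.21 at 6 h, 7.89, 7.76 and 7.37 at 14 h, and 7.62, 7.49 and 7.71 at 24 h, and each group overlapped dawn. The rise of 0.36 ± 0.15 at 14 h passed narrowly (limma adjusted p = 0.046), but not without the array that stood apart (0.24, adjusted p = 0.25), with array weights (0.18, adjusted p = 0.57) or with replicate number as a block (adjusted p = 0.051). At 24 h the difference was 0.29 ± 0.15 (limma adjusted p = 0.10); it was 0.17 without the array that stood apart, and passed without replicate 2 of dawn (0.48, adjusted p = 0.011).

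Unlike *hsp22*, *hsp18a* was higher in the mature zone than below it in the elongation zone at every time, and outside dusk by 0.50 ± 0.15 at dawn (limma adjusted p = 0.0044), 0.56 ± 0.17 at 6 h (0.0043), 0.82 ± 0.15 at 14 h (1.7e-05) and 0.99 ± 0.15 at 24 h (9.4e-07). At these 4 times the groups did not overlap, and the first value was 0.62 without the array that stood apart. The first 2 rested in part on single arrays, and did not pass without replicate 2 of the mature zone at dawn (0.32) or replicate 1 of the mature zone at 6 h (0.43). The elongation and division zones overlapped at these times, with differences from −0.24 to −0.11. None of these passed, but that at 24 h (−0.24 ± 0.08) did in the fit of the 2 groups alone with replicate number as a block (limma adjusted p = 0.048). The mature zone at dusk (mean 8.71) stood alone at the top of the order of levels, and the groups next to each other below it overlapped except at the step from the elongation zone at dusk (7.25) to the division zone at dawn (6.98).

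*hsp26*, the chloroplast gene, was dim throughout and was highest at dusk in the elongation and mature zones. Its levels there were 6.01 and 6.16 (elongation) and 6.07 and 5.73 (mature), each above all later arrays of the zone. In the division zone the dusk arrays, at 5.39, 5.02 and 5.21, overlapped those of dawn, at 5.06, 5.19 and 5.16. At dawn the elongation zone was at 5.30, 5.25 and 5.20 and the mature zone at 5.22, 5.45 and 5.05. The difference over the night was thus −0.84 ± 0.12 for the elongation zone, −0.66 ± 0.12 for the mature zone and −0.07 ± 0.11 for the division zone; that of the mature zone was −0.57 without the array that stood apart. Later levels ran from 4.70 to 5.21 in the division zone, from 5.07 to 5.41 in the elongation zone and, for the mature zone, from 5.06 to 5.70.

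In the dark *hsp26* passed 1 of its 6 tests against dawn, made in the division and mature zones, a rise of 0.29 ± 0.11 in the mature zone at 24 h (limma adjusted p = 0.025), where its levels were 5.54, 5.70 and 5.33 and overlapped those of dawn. It did not pass without the array that stood apart (0.19, adjusted p = 0.17) or in the fit of the 2 groups alone (adjusted p = 0.18). In the division zone the levels at 6 h, 4.70, 5.01 and 4.89, lay below dawn without overlap, but the difference of −0.27 ± 0.11 did not pass (limma adjusted p = 0.23). The untested differences in the elongation zone were −0.08, −0.12 and −0.02 at 6, 14 and 24 h, each ± 0.11. The change from dawn was larger in the mature zone than in the division zone by 0.43 ± 0.16 at 6 h (limma adjusted p = 0.049) and 0.48 ± 0.15 at 24 h (limma adjusted p = 0.0099). Without the array that stood apart these were 0.34 (adjusted p = 0.14) and 0.38 (adjusted p = 0.041), and the first was also lost when other single arrays were left out. Along the leaf *hsp26* was higher in the elongation than in the division zone at 6 h (0.31 ± 0.11, limma adjusted p = 0.022) and 24 h (0.29 ± 0.11, 0.03), and higher again in the mature zone at 24 h (0.29 ± 0.11, 0.016), and each of these was lost when certain single arrays were left out, at 0.22, 0.20 and 0.20 at the lowest. Of the 4 genes *hsp26* was the only one called between the division and elongation zones at 6 h and 24 h, against 43% and 43.2% of all probe sets.

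*hsp18f*, also dim throughout, was highest at dusk in the growth zones. At dusk it was at 5.72, 5.76 and 5.82 in the division zone and at 5.84 and 5.85 in the elongation zone, above all later arrays of both zones. At dawn it was at 5.37, 5.36 and 5.25 in the division zone and at 5.11, 5.10 and 5.01 in the elongation zone, so that the difference over the night was −0.44 ± 0.11 and −0.77 ± 0.13. The 2 zones did not overlap at dawn, and their difference of −0.25 ± 0.11 did not pass (limma adjusted p = 0.081) in the fit of all groups, but did in a fit of the 2 groups alone with replicate number as a block (adjusted p = 0.0098). In the extended night the levels ran from 4.97 to 5.46 in the division zone and from 4.92 to 5.25 in the elongation zone, and none of the 6 differences from dawn passed the test. The nearest was the division zone at 24 h, with 5.10, 5.13 and 4.97, where the groups did not overlap (−0.26 ± 0.11, limma adjusted p = 0.081); this passed in the fit of the 2 groups alone (adjusted p = 0.024), with array weights (adjusted p = 0.0025) and with arrays centred on their median (adjusted p = 0.03).

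In the mature zone *hsp18f* rose in the dark. Its levels were 5.49, 5.20 and 5.01 at dawn, 5.70 and 5.74 at 6 h, 5.96, 5.70 and 5.72 at 14 h, and 5.76, 5.60 and 5.74 at 24 h. Every array of the extended night lay above every array of dawn. The rise was 0.49 ± 0.13 at 6 h (limma adjusted p = 0.0026), 0.56 ± 0.11 at 14 h (limma adjusted p = 9.4e-05) and 0.47 ± 0.11 at 24 h (limma adjusted p = 0.00071). Without the array that stood apart it was 0.38 (adjusted p = 0.025), 0.45 (adjusted p = 0.0022) and 0.36 (adjusted p = 0.012). The first did not pass in the fit of the 2 groups alone (adjusted p = 0.13) or with array weights (0.41, adjusted p = 0.075). In the mature zone 1 of 4 genes rose at 6 h, 2 of 3 tested at 14 h and 2 of 4 at 24 h, where 19.5%, 32% and 31.6% of all probe sets were called higher. Without the array that stood apart these numbers were 1, 1 and 1, all *hsp18f*.

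The 2 mature zone arrays of *hsp18f* at dusk, at 5.18 and 5.84, lay near the bottom and near the top of the zone's range. The difference over the night was −0.28 ± 0.13, and −0.61 or 0.05 with 1 or the other of them left out. It was −0.17 without the dawn array that stood apart. From dusk to 14 h the difference was 0.28 ± 0.13, and −0.05 or 0.61 with 1 or the other dusk array left out. Each of these directions rests on a single array. Relative to the elongation zone *hsp18f* was higher in the mature zone by 0.61 ± 0.13 at 6 h (limma adjusted p = 8.4e-05), 0.70 ± 0.11 at 14 h (2.2e-06) and 0.71 ± 0.11 at 24 h (1.8e-06), with no overlap, and by 0.16 ± 0.11 at dawn (0.21), which passed without the array that stood apart (0.27, adjusted p = 0.044). The change of *hsp18f* from dawn was larger in the mature zone than in the division zone by 0.46 ± 0.17 at 6 h (limma adjusted p = 0.044) and 0.73 ± 0.16 at 24 h (0.00034), and higher than in the elongation zone by 0.55 ± 0.16 at 24 h (0.0053). Without the array that stood apart, the difference for 6 h no longer passed, as without several other single arrays, and the values were 0.35 (adjusted p = 0.14), 0.62 (adjusted p = 0.002) and 0.44 (adjusted p = 0.025).

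Over the normal night the 4 genes thus had dawn arrays below the dusk arrays without overlap for 3 of 4 in the division zone, 4 of 4 in the elongation zone and, in mature tissue, 3 of 4, where 19.2%, 21.1% and 22.8% of all probe sets had this pattern; the comparison took part in the choice of the genes. The exceptions were *hsp26* in the division zone and *hsp18f* in the mature zone. In the extended night *hsp22* was lower than at dawn in the growth zones, with 24 h above 14 h, while *hsp18a*, *hsp18f* and, in the division zone, *hsp26* gave no call there against dawn. At 24 h 2 of 3 genes tested had a change that differed between the mature and elongation zones, and 2 of 4 between the mature and division zones, against 48.7% and 49.5% of all probe sets. The numbers for 6 h were 1 of 3 and 2 of 4, against 23.5% and 26.4%. Between the elongation and mature zones 2 of 3 genes tested were called at dawn (76.2% of all probe sets), 3 of 4 at 6 h (78.2%), 2 of 3 at 14 h (80.6%) and 4 of 4 at 24 h (80.2%). The comparisons of 6, 14 and 24 h share the dawn arrays, so their differences are not independent of each other. After subtraction of each zone's mean, the group means of pairs of the 4 genes correlated at r = 0.42 (*hsp18a* and *hsp18f*) to 0.73 (*hsp26* and *hsp18a*) over the 15 groups, all measured on the same arrays. Without that subtraction r ran from 0.03 (*hsp22* and *hsp18a*) to 0.62. The groups include those at dusk, which took part in the choice of the genes, so these correlations are a description and not a result about shared control.

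The array names 6 other heat shock genes, listed with earlier results known, and over the night their growth zone differences were small. They ran from −0.14 to 0.23 in the division zone (limma adjusted p from 0.18 to 0.95) and from −0.22 to 0.40 in the elongation zone (0.061 to 0.91), with medians of 0.06 and 0.12 against 0.01 for all probe sets in each. In the mature zone 3 rose and 2 fell, where 20.2% of all probe sets were called higher and 20.3% lower. Those that rose over the night were *hsp101*, the chaperone that pulls aggregated proteins apart, by 0.87 ± 0.13 (limma adjusted p = 1.3e-06), *hsp18c*, a further cytosolic small heat shock gene, by 0.28 ± 0.10 (0.023), and *hsfb*, a heat shock factor gene, by 0.26 ± 0.10 (0.032). The HSP70 genes *hsp70-4* and *hsp70-5*, whose products refold client proteins with ATP, stood at −0.65 ± 0.16 (limma adjusted p = 0.0015) and −0.76 ± 0.14 (4.7e-05). Over single arrays left out the number that rose ran from 1 to 3 and the number that fell from 2 to 3, and in the fit of the 2 groups alone they were 1 and 0.

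In mature tissue at 6 h of the extended night, 1 of the 6 other heat shock genes rose and 1 fell (3 and 0 without the array that stood apart), and 3 rose and 2 fell at 14 h (2 rose without it). In the division zone 1 rose and 1 fell at 14 h. All probe sets were called at 39.1%, 57.4% and 57.9% in the mature zone at 6, 14 and 24 h, and at 43.5% in the division zone and 46.3% in the elongation zone at 14 h. At 24 h 3 of 6 rose in the mature zone and 1 fell, with a median difference of 0.26 against 0.04 for all probe sets, and the same counts held in every alternative run. *hsp70-4* rose by 1.09 ± 0.14 (limma adjusted p = 6.9e-08) and *hsp70-5* by 0.97 ± 0.13 (4.3e-08), and *hsfb* rose by 0.42 ± 0.09 (0.00012). *hsp101* fell by 1.12 ± 0.11 (limma adjusted p = 3.3e-10), from a mean of 7.98 to 6.86. The organelle chaperonin gene *CPN60I* fell in the elongation zone, at −2.16 ± 0.47 at 14 h (limma adjusted p = 0.00027) and −2.22 ± 0.47 at 24 h (0.00025), where it was the only 1 of the 6 called. Its dawn arrays in the mature zone spread from 6.61 to 9.94. The nearest relative among the 6, *hsp18c*, had no call against dawn in any zone by its brighter probe set (in the mature zone 0.09 ± 0.10 at 6 h, 0.18 ± 0.09 at 14 h and 0.10 ± 0.09 at 24 h, limma adjusted p = 0.53, 0.083 and 0.34). Its other probe set fell at 24 h in the division zone (−0.35 ± 0.11) and at 14 h and 24 h in the elongation zone (−0.29 ± 0.11 and −0.27 ± 0.11), so the 2 probe sets differ in their calls. The names of the *hsp18c* and *hsp18f* probe sets share their cluster number, and how far either reads transcripts of the other gene was not tested.

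**Figure D3:**
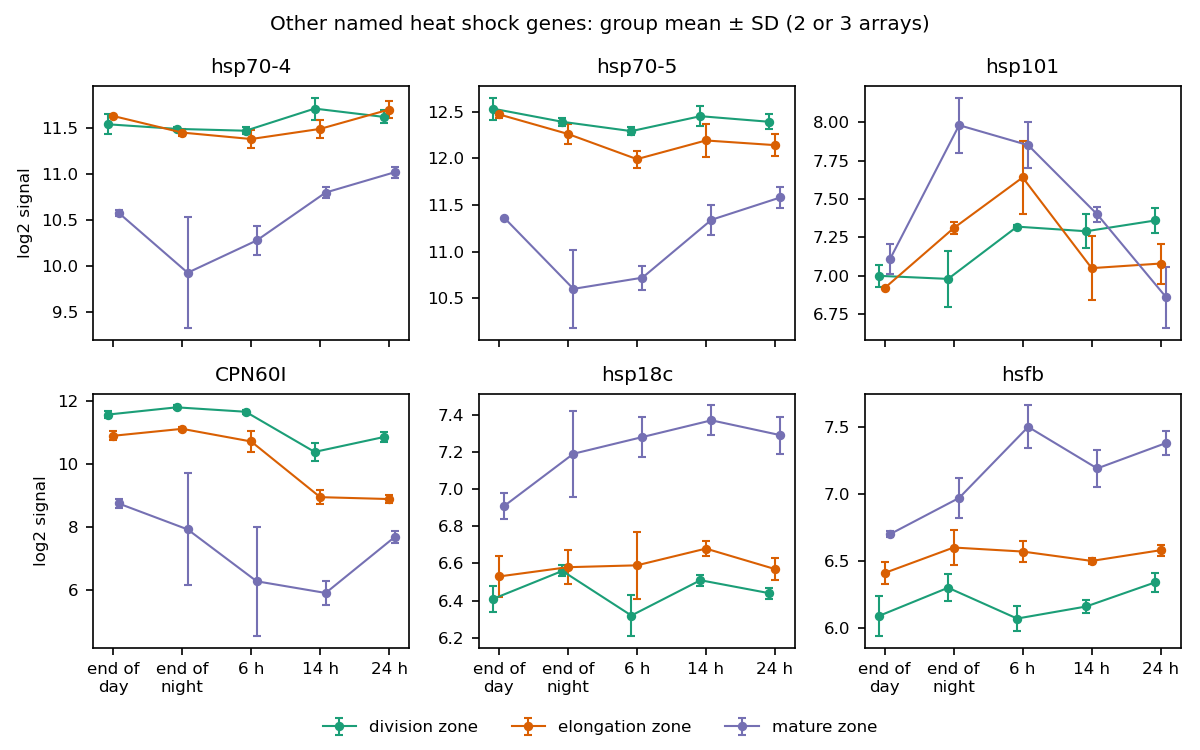
Log2 signal (vertical axis, scaled per gene) of the 6 other named heat shock genes at the 5 sampling times, as group mean ± SD of 2 or 3 arrays in each of the 3 zones. In the growth zones no dusk points stand as far above dawn as those of *hsp22*. In the elongation zone *hsp70-4* and *hsp70-5* have dusk means of 11.63 and 12.47 against 11.45 and 12.26 at dawn, and the other genes lower means at dusk. In the mature zone *hsp70-4* and *hsp70-5* climb and *hsp101* declines between dawn and 24 h.

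For each of the 4 genes the named genes with the most similar time course were found by Pearson's r over the 15 group means after each zone's mean was subtracted, among probe sets above the dim level in the mean of 1 or more groups. For *hsp22* these were *csu503(met)* (r = 0.92), *LOC541984* (0.91) and *Hda1*, a histone deacetylase gene (0.91). For *hsp18a* they were *aoc1* (0.93), *tacs1* (0.92) and *TIP4-1*, an aquaporin gene of the vacuole membrane (0.91). For *hsp26* they were *thi1-2*, of thiamine synthesis (0.81), *GRF2* (0.74) and *trxh1*, a thioredoxin gene (0.74), and for *hsp18f* *SRP2B* (0.87), *LOC542037* (0.80) and *LOC542345* (0.79). In a further ranking with zone differences kept, the most similar to *hsp22* were *bip2* (0.87) and *bip1* (0.86), both HSP70 chaperones of the endoplasmic reticulum, and *ITPK1* (0.85). For *hsp18a* that ranking gave *TIP4-1* (0.9), *EREB55* (0.9, above the dim level in 2 groups) and *sig3* (0.89). It gave *LOC541984* (0.76), *LOC542698* (0.76) and *rnc1* (0.75) for *hsp26*, and *pk4* (0.71), *pep7* (0.69) and *Gln1-4* (0.69) for *hsp18f*. These correlations describe 15 points from the same arrays, among them the dusk arrays that took part in the choice of the 4 genes, and carry no test. *TIP4-1* was above the dim level in 1 of the 15 groups, the mature zone at dusk, and passed the filter through that group alone. The same group was the highest of *hsp18a*. *SRP2B* was above the dim level in 6 groups, *LOC542345* in 8 and *tacs1* in 11, so their courses and that of *TIP4-1* hold dim signal too. *ITPK1* was above it in 12. For *hsp26* and *hsp18f* they set a dim signal beside brighter ones.

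**Figure D4:**
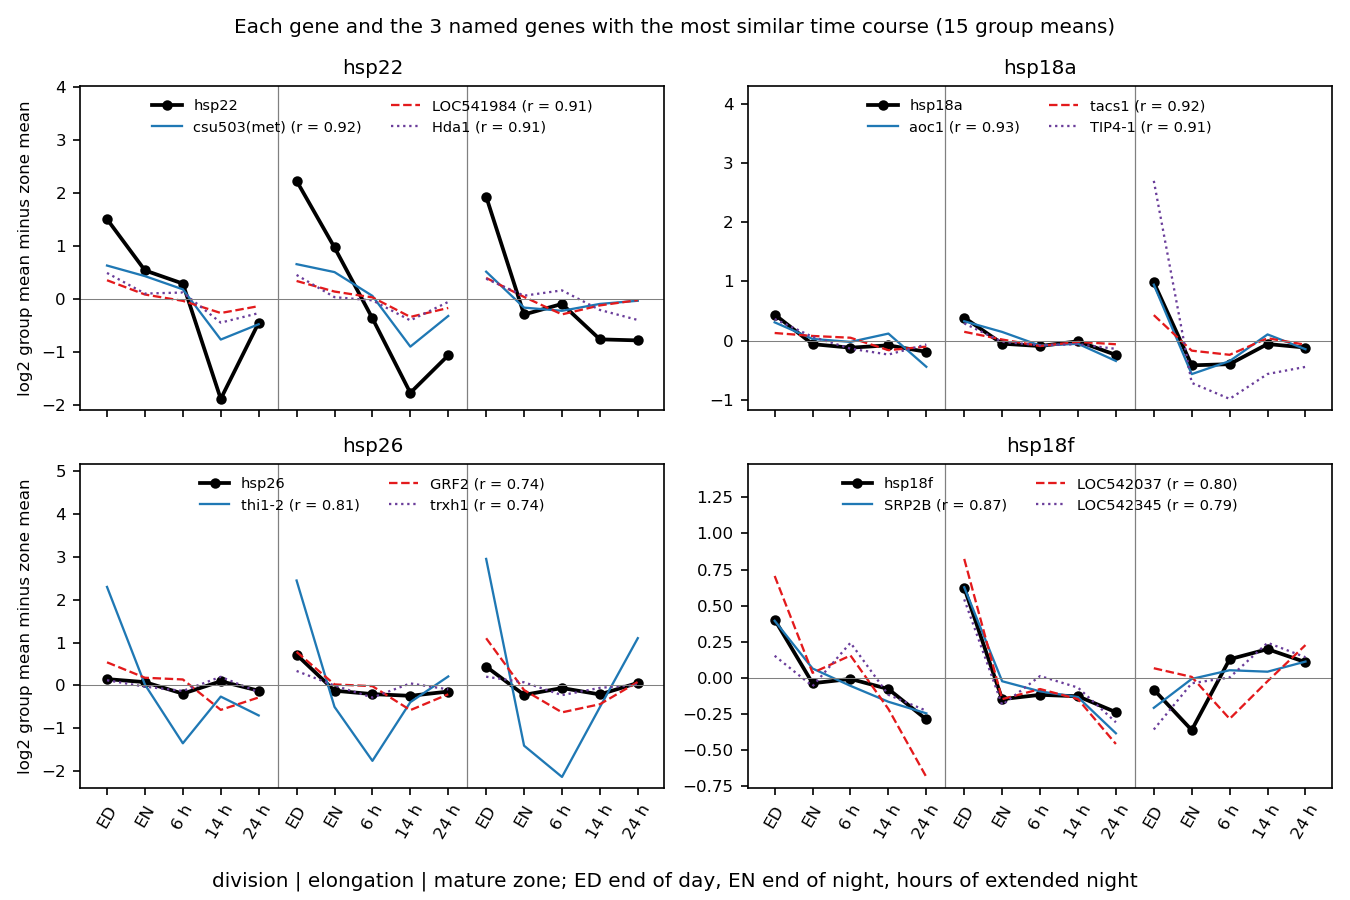
Log2 group mean minus the mean of its zone (vertical axis) for each of the 4 genes (black) and the 3 named genes most like it (colours, with r over 15 group means), over the 5 times in each of the 3 zones. The genes most like *hsp22* have a low point at 14 h in both growth zones, and the course of *hsp26* is much flatter than that of *thi1-2*.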

How the data were processed

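The deposited table holds log2 signals per probe set. Per the submitters' processing notes the authors used RMA, whose version is not given here. Of 17734 probe sets, 113 control and 66 reporter probe sets were left out. Values were used as deposited. Group means of all 15 groups were fitted with lmFit and eBayes in limma 3.58.1 under R 4.3.3 (27 residual and 4.01 prior degrees of freedom), with Benjamini-Hochberg adjustment over 17555 probe sets within each of 26 tested comparisons; for the 4 genes comparisons with the end of the day, for *hsp22* those with 14 h and for *hsp26* those with the elongation zone at dawn were described without a test. The fit was tested on simulated data. Genes were named from the array annotation (1452 probe sets with 1 gene), and lists use a gene's brightest probe set; precision is limited by how many arrays there are. All 4 genes and all 6 other heat shock genes are named; of other lists the 2 largest calls in each direction; and the 3 most similar genes of each. The genes and lists were chosen with earlier results of these data known. Alternatives were the compared groups alone, array weights, median centring, a filter on dim probe sets, replicate number as a block, and each array left out. In the growth zones, arrays with the same replicate number in the titles deviated together from their group means at dawn (correlations of 0.21 to 0.33), 14 h (0.14 to 0.46) and 24 h (0.22 to 0.42), but at 6 h (0.03 to 0.32) and in the other pairs of zones not for every number. A fit of the compared growth zone groups alone, with that number as a block within time, was therefore added after the data were seen.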

Additional observations from a re-analysis of the deposited data

Results flagged for a closer look

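For 3 of the 4 genes the change from dawn differed between leaf zones in 1 or more tests of the difference itself (limma, adjusted over all probe sets). For the mature against the elongation zone, 23.5% of all probe sets were called at 6 h and 48.7% at 24 h. For the mature against the division zone these shares were 26.4% and 49.5%. The share of all probe sets called in 1 or more of these comparisons was not counted. It cannot be below 49.5%, so 3 of 4 is not read as a result about these genes. For *hsp22* the change in the mature zone exceeded that in the elongation zone by 1.54 ± 0.40 at 6 h (adjusted p = 0.0049) and 1.55 ± 0.38 at 24 h (0.00093), where *hsp22* fell in the elongation zone and did not pass in the mature zone. For *hsp26* it exceeded that in the division zone by 0.43 ± 0.16 at 6 h (adjusted p = 0.049) and 0.48 ± 0.15 at 24 h (0.0099), both between dim signals. For *hsp18f* it exceeded that in the division zone by 0.46 ± 0.17 at 6 h (adjusted p = 0.044) and 0.73 ± 0.16 at 24 h (0.00034), and that in the elongation zone by 0.55 ± 0.16 at 24 h (0.0053). Without replicate 3 of the mature zone at dawn, which stood apart, the *hsp22* values were 1.83 (adjusted p = 0.00073) and 1.84 (9.8e-05). Those of *hsp26* were then 0.34 at 6 h (adjusted p = 0.14, not passing) and 0.38 at 24 h (0.041). Those of *hsp18f* were 0.35 at 6 h (adjusted p = 0.14, not passing), 0.62 (0.002) and 0.44 (0.025). At 6 h the call changed in 11 of 16 alternatives for *hsp26* and in 10 of 16 for *hsp18f*. *hsp22* was already below the dim level in the mature zone at dawn, and the part of a signal floor in its smaller change there was not tested.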

How the results depend on the processing

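Over the 4 genes, leaving out 1 array at a time kept the call and direction of 848 values, brought 15 past the threshold, lost 35, moved 16 by more than 1 SD and reversed 2. The reversed values were those of *hsp18f* in mature tissue over the night (0.05) and from dusk to 14 h (−0.05). In the compared groups alone, calls were gained for *hsp22* between the growth zones at dawn (0.54) and in their difference of change to 24 h (−1.05), and for *hsp18f* in the division zone at 24 h (−0.26) and between the growth zones at dawn (−0.25) and 6 h (−0.24). Calls were lost there for *hsp26* in the mature zone at 24 h (0.29), against the elongation zone at 24 h (0.29) and in its difference of change to 6 h (0.43), for *hsp18a* in the mature zone at 14 h (0.36), and for *hsp18f* at 6 h in the mature zone (0.49) and in its difference of change from the division zone (0.46). Array weights gave gains for *hsp22* between the growth zones at 0.60, −0.62 and −0.64 (dawn, 6 h, 24 h) and in their difference of change at −1.22 and −1.25, and for *hsp18f* at −0.30 and −0.22 (division zone at 24 h, against dawn and 14 h) and at −0.25 and −0.27 (between the growth zones). They gave losses for *hsp26* at 0.20, 0.22, 0.25 and 0.33, *hsp18a* at 0.18 and *hsp18f* at 0.41 and 0.35. With arrays centred on their median, *hsp26* was called higher in the mature zone than in the elongation zone at 6 h (0.45) and 14 h (0.34) and *hsp18f* at dawn (0.31), untested differences became −0.03 (dusk) and 0.14 (dawn) for *hsp26* and −0.18 (dusk) for *hsp18f*, and calls were gained for *hsp18a* (0.58) and *hsp18f* (0.51) in the difference of change between these zones and for *hsp18f* in the division zone at 24 h (−0.34). Dropping dim probe sets, *hsp26* and *hsp18f* among them, changed no call of *hsp22* or *hsp18a*. Over all zones 16 of 40 pairs of replicate numbers correlated over 0.1; a replicate block lost 0.43 for *hsp26* and 0.36 for *hsp18a*, and a replicate block within time gained 0.46 for *hsp18f* and changed no other call. In the compared growth zone groups alone, the replicate block within time gained 0.54 and −0.54 (between these zones, dawn and 6 h), −1.08 and −1.05 for *hsp22*, −0.24 for *hsp18a* at 24 h, and −0.25 and −0.24 for *hsp18f* at dawn and 6 h, and changed no other call. At 6 h arrays with the same number deviated together for 2 of 3 numbers only (correlations from 0.03 to 0.32). Called probe sets then went from 26 to 139 and 634 to 2575 in the differences of change. Over single arrays left out, *hsp22* ran from −1.22 to −0.74 (division zone, 24 h), −0.69 to −0.19 (mature zone, 24 h), −0.78 to −0.20 and −0.76 to −0.28 (elongation against division zone, 6 h and 24 h) and −1.30 to −0.82 (difference of change to 24 h between the growth zones). *hsp26* ran in the mature zone from 0.19 to 0.39 (24 h), −0.84 to −0.49 (night), −0.83 to −0.48 (dusk to 14 h) and 0.19 to 0.37 (14 h to 24 h), between zones from −0.36 to −0.01 (mature against elongation, dusk), 0.22 to 0.38 and 0.20 to 0.35 (elongation against division, 6 h and 24 h) and 0.20 to 0.39 (mature against elongation, 24 h), and in the difference of change from 0.34 to 0.54 (6 h) and 0.21 to 0.41 (24 h, mature against elongation). *hsp18a* ran in the mature zone from 0.24 to 0.54 (14 h), 0.17 to 0.48 (24 h), −1.84 to −0.96 (night) and −1.48 to −0.60 (dusk to 14 h), against the elongation zone from 1.01 to 1.90, 0.32 to 0.62 and 0.43 to 0.68 (dusk, dawn, 6 h), and in the difference of change to 24 h from 0.30 to 0.60 and 0.37 to 0.67. *hsp18f* ran in the mature zone from −0.61 to 0.05 (night) and −0.05 to 0.61 (dusk to 14 h), against the elongation zone from −0.67 to −0.01 (dusk) and 0.03 to 0.27 (dawn), and in the difference of change to 6 h from 0.35 to 0.59 and 0.34 to 0.58. Called probe sets moved by over 1.5 times in the compared groups alone from 712 to 1859 (division zone, 6 h), 1142 to 2825 (division zone, night), 6869 to 2180, 10071 to 5589, 7113 to 2520 and 5364 to 1902 (mature zone at 6 h, 14 h, over the night and from 14 h to 24 h), 4124 to 2357 and 634 to 1494 (differences of change, 6 h mature against elongation and 24 h elongation against division), and with array weights to 5257 and 4792 for the first 2, from 5762 to 9009 (division zone, 24 h), 1582 to 3337, 1106 to 2563 and 3877 to 6741 (elongation zone, 6 h, night and 14 h to 24 h), and to 3170, 233 (from 26, 6 h elongation against division) and 3647 for the last. Among the other heat shock genes in the mature zone at 14 h, 3 rose and 2 fell, 1 and 1 in the groups alone and 4 rose with centring. Among the endoplasmic reticulum genes there, 5 fell, 1 in the groups alone. A choice between probe sets was not run, since each gene has 1. The cause of these changes was not tested, and signal near the dim level limits *hsp26* and *hsp18f* throughout.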

Other observations

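Of 15 listed chaperone genes of the endoplasmic reticulum, 11 fell in the elongation zone at 14 h of extended night (median difference −0.45 against −0.03 for all probe sets), and 9 fell and 1 rose at 24 h (−0.40 against −0.05). Of all probe sets 23.8% and 20.6% were called lower there. The HSP70 genes *bip2* and *bip1* had the largest falls at 14 h, at −2.55 ± 0.19 (limma adjusted p = 7.7e-13) and −2.14 ± 0.22 (1.7e-09). In the division zone 6 fell and 1 rose at 14 h, with *bip2* at −1.61 ± 0.19 (limma adjusted p = 1.5e-08). There 22.8% of all probe sets were called lower and 20.7% higher. At 24 h the mature zone had a mixed picture, in which 6 rose and 4 fell: the protein disulfide isomerase genes *pdi* and *pdi10* rose by 2.09 ± 0.20 (limma adjusted p = 1.2e-10) and 1.58 ± 0.10 (8.7e-15), while the calreticulin gene *crt2* was at −2.20 ± 0.26 (1.1e-08). All probe sets were called higher at 31.6% and lower at 26.3% in that comparison. At dawn all 15 were lower in the mature zone than in the elongation zone (median −2.21 against 0.06 for all probe sets). Of these probe sets 37.6% were called lower.

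Of 7 antioxidant enzyme genes, the catalase gene *CAT3* rose in every zone, at 14 h by 2.86 ± 0.17 in the division zone (limma adjusted p = 5.9e-15), 2.28 ± 0.17 in the elongation zone (9.4e-13) and, for the mature zone, 2.52 ± 0.17 (2.7e-14). There, at 24 h, 2 of the 7 rose and 3 fell, with *CAT3* at 2.81 ± 0.17 (limma adjusted p = 1.1e-15) and another catalase gene, *cat2*, at −2.23 ± 0.10 (2.8e-18). In the mature zone at 24 h, 31.6% of all probe sets were called higher and 26.3% lower. The only listed ubiquitin gene, *ubc7*, which encodes a ubiquitin-conjugating enzyme, rose at 24 h by 0.79 ± 0.08 (division), 1.08 ± 0.08 (elongation) and 0.62 ± 0.08 (mature). Among 4 dehydrin and related genes *dhn2* fell in all 3 zones at 24 h (−0.68 ± 0.13, −1.08 ± 0.13 and −0.61 ± 0.13), 1 of the 4 rose in the mature zone, and the other changes did not pass. Both listed chaperonin genes, *CPN60I* and *CPN60II*, fell at 14 h in the division zone and at 14 h and 24 h in the elongation zone, *CPN60II* at −1.74 ± 0.37 (limma adjusted p = 0.00018) and −1.79 ± 0.37 (0.00015) in the latter. In these comparisons 22.8%, 23.8% and 20.6% of all probe sets were called lower.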
